A study of Homo sapiens with 12 samples.

Results

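Axon guidance ligands and receptors were followed in 2 tumor cell lines after depletion of IGF2BP1, an oncofetal RNA-binding protein that associates with mRNAs and alters their turnover. The members were protein-coding genes listed for both cell lines whose symbols place them among the ephrins, Eph receptors, semaphorins, plexins, neuropilins, slits, roundabouts, netrins and the netrin receptors DCC and UNC5. The symbol rule took 68 of 19799 protein-coding genes and covered the main families and not every gene in them. They were 8 ephrins, 13 Eph receptors, 20 semaphorins, 9 plexins, 2 neuropilins, 3 slits, 4 roundabouts, 4 netrins and 5 netrin receptors.

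Poly-A-enriched RNA was sequenced from BE(2)-C, a neuroblastoma line that carries many copies of MYCN, and from Hep-G2, a hepatoblastoma line. Cells of each line were transfected with a control siRNA (siC) or with a pool of siRNAs against IGF2BP1 (siI1) and harvested 72 h later. The siRNA concentration was higher for BE(2)-C than for Hep-G2 and the media differed, so that these cannot be told apart from the line where the lines are compared. Each of the 4 groups had 3 biological replicates, so that 12 libraries were compared, always siI1 against siC within a cell line. The transfection was transient and each line is a single long-established culture, which limits both as models of the tissue they came from. The libraries held from 12852988 to 15721210 reads assigned to genes. Expression is given as FPKM, fragments scaled to gene length and to the size of the library, which allows levels to be compared between genes as well as between libraries of a line. For a gene of 1 kb, a single read was worth between 0.0644 and 0.0780 FPKM.

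Guidance cues are secreted or membrane-bound proteins that attract or repel the tip of a growing axon. Semaphorins act through plexins, with neuropilins as co-receptors for the secreted class 3 semaphorins, ephrins signal to Eph receptor tyrosine kinases on touching cells, slits repel through roundabouts, and netrins attract through DCC or repel through UNC5 receptors. The same molecules guide neural crest cells, from which neuroblastoma arises, and steer blood vessels and epithelia outside the nervous system.

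IGF2BP1 itself served as a check of the knockdown. In BE(2)-C it was measured at 21.3, 20.6 and 21.6 FPKM in the siC libraries and at 4.85, 4.75 and 4.87 FPKM in the siI1 libraries. In Hep-G2 the values were 48.5, 46.6 and 50.8 FPKM with siC and 12.6, 10.7 and 10.7 FPKM with siI1. All siI1 libraries lay far below the siC libraries of their line, as labelled, and a residue of the mRNA remained in each. The change was -2.11 on the log2 scale in BE(2)-C (SE 0.0477, limma adjusted p = 1.48e-05) and -2.10 in Hep-G2 (SE 0.0793, limma adjusted p = 7.83e-06).

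The cell lines expressed the markers of their labelled origin. The 10 markers of adrenergic neuroblastoma summed to 3785, 3540 and 3563 FPKM in BE(2)-C siC libraries, with MYCN the most abundant, and to at most 0.269 FPKM in a Hep-G2 library, where MYCN and 8 others were below the expression filter. The 9 markers of hepatocytes or hepatoblasts summed to 9586, 10044 and 9679 FPKM in Hep-G2 siC libraries, with ALB the most abundant, and none of them passed the filter in BE(2)-C, where they summed to at most 0.228 FPKM. Among the Hep-G2 libraries, siI1 replicate 1 stood apart from its group. The log2 differences between this library and the mean of its group mates had an SD of 0.291 across genes, against 0.175 to 0.210 in the other Hep-G2 libraries, and the Hep-G2 counts of members and of pathway genes are therefore also given without it.

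Of the 68 members, 51 reached 0.1 FPKM in at least 3 of the 6 BE(2)-C libraries and were tested. With siI1, 9 of these were lower and 7 higher at an adjusted p below 0.05 in limma. Of all tested protein-coding genes in BE(2)-C, 19.9% were lower and 15.5% higher, and of all tested genes of any type 14.8% and 13.3%. The members' shares, 17.6% lower and 13.7% higher, were thus close to the background, and the share that changed is not a result about these families. Their median log2 fold change was -0.15, against -0.01 over all tested protein-coding genes. The 4 smallest p among the members belonged to the semaphorin receptors NRP2, PLXNA2, PLXNA4 and PLXND1, which all fell. RNA of a whole culture was measured, so that fewer cells expressing a gene and less RNA of it per cell cannot be told apart.

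These counts depended on the settings. With limma-voom on whole reads recovered from the FPKM values 15 members were lower and 11 higher, and with median centring of the libraries 6 were lower and 8 higher, while equal sums of FPKM gave 6 and 6. Both scalings ended the calls of EFNB2, SEMA4A and SLIT3. Leaving out 1 library gave 6 or 7 lower members. The number of higher members was then 3 without siC replicate 2 or siI1 replicate 2, 4 without siC replicate 1, siC replicate 3 or siI1 replicate 3, and 5 without siI1 replicate 1. The calls of 6 of the 9 lower and 3 of the 7 higher members held in each of the 6 fits that left a library out. Markers of maturing neurons moved along with the knockdown in BE(2)-C. Of 8 such markers, 4 were higher and 1 lower, and their sum was 495, 534 and 491 FPKM in the siC libraries and 601, 598 and 582 FPKM in the siI1 libraries. NEFM, which rose, and GAP43, which fell, were the most abundant of them in the siC libraries at 152 and 152.5 FPKM on average, and RBFOX3 was below the filter. Of the adrenergic markers 5 were lower and 2 higher, with sums of 3857, 3748 and 3814 FPKM in the siI1 libraries. Of 8 markers of the mesenchymal state of neuroblastoma, 2 were higher and none lower, with sums of 49.9, 49.5 and 44.7 FPKM in siC and 51.5, 45.3 and 52.0 FPKM in siI1 libraries, mostly VIM, and with PRRX1, YAP1 and NOTCH2 below the filter. The part of these shifts in the changes of the members was not tested.

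In Hep-G2, 36 members passed the same filter, of which 6 were lower and 13 higher with siI1. Of all tested protein-coding genes in Hep-G2, 30.5% were lower and 25.3% higher, and of all tested genes 23.0% and 21.9%. The members' shares were 16.7% lower and 36.1% higher and their median log2 fold change was 0.21, against -0.04 over all tested protein-coding genes. No test was made of these shares against the background. Among the genes that rose were the ephrin EFNA1, the Eph receptors EPHA1 and EPHB4 and the semaphorin SEMA6B, and among those that fell NTN4, PLXNA2 and SEMA3G. Without siI1 replicate 1, 7 members were lower and 15 higher, with ROBO1 among the lower and EFNA4, SEMA3B and SEMA3F among the higher in that fit alone of those leaving out a library. With the libraries scaled to equal sums of FPKM, which moved the median log2 fold change of all tested genes by -0.15, 6 members were lower and 9 higher, and SEMA4G, SEMA6C, SEMA7A and NTN3 lost their calls. Median centring gave 5 lower and 18 higher. The filter was met by EPHA10 in the siI1 libraries alone and by EPHB1 in the siC libraries alone, and by SEMA3C and NTN3 in all libraries of the higher group and 1 of the other. EPHA10 and EPHB1 thus had to differ in order to be tested.

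Markers also moved in Hep-G2. All 9 hepatocyte or hepatoblast markers were called, 6 higher and 3 lower, and their sum was 13519, 15663 and 15853 FPKM in the siI1 libraries, above each siC library. Of the 8 genes of the mesenchymal list, 4 were lower in Hep-G2 and none was higher, with sums of 812, 699.6 and 793 FPKM with siC and 468, 375 and 385 FPKM with siI1. FN1 was the most abundant of these, and PRRX1 and CD44 were below the filter. Of the maturing neuron markers none was called in Hep-G2, 5 were below the filter, and the sums stayed between 1.76 and 2.21 FPKM. The part of these shifts in the results on the members was not tested.

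Semaphorin receptors changed in both directions in BE(2)-C. NRP2, 1 of 2 neuropilins, and PLXNA2, PLXNA4 and PLXND1, 3 of the 8 plexins tested, fell. NRP1 and PLXNB1 rose, and 4 plexins were not called. The 37.5% of plexins that were lower stand beside 19.9% of all tested protein-coding genes, and were too few for a reading of the family. NRP2 is the co-receptor preferred by SEMA3F and also binds the lymphatic growth factor VEGF-C. Its gene, ENSG00000118257, lies at chr2:205681990-205798133 on the plus strand of hg38. NRP2 was measured at 6.69, 6.19 and 6.78 FPKM with siC and at 2.13, 2.28 and 2.12 FPKM with siI1 in BE(2)-C. All siI1 libraries were below all siC libraries by a wide margin, with 409 to 1335 reads behind each value. In limma the log2 fold change was -1.55 (SE 0.0763, adjusted p = 0.000121), a 2.92-fold decrease on the scale of log2(FPKM + 0.1), which understates changes of weakly expressed genes.

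NRP1, the co-receptor for SEMA3A and VEGF-A, moved the other way in BE(2)-C. Its values were 7.36, 7.51 and 7.06 FPKM with siC and 8.06, 8.28 and 8.81 FPKM with siI1. The groups did not overlap, but the gap was small. The log2 fold change was 0.19 (SE 0.0593, limma adjusted p = 0.0490), and the call was lost whichever library was left out, with an adjusted p between 0.0724 and 0.163. Equal sums of FPKM, a pseudocount of 1, no filter and no trend also ended it. For NRP2 over NRP1, the ratio of FPKM came to 0.909, 0.825 and 0.960 in control libraries, against 0.265, 0.276 and 0.241 after the knockdown. NRP2 was thus nearly as abundant as NRP1 in control BE(2)-C cells and far less abundant after the knockdown.

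In Hep-G2 the order of the changes was reversed. NRP1 was measured at 11.5, 11.3 and 11.2 FPKM with siC and 10.5, 8.65 and 8.89 FPKM with siI1, and siI1 replicate 1 was the highest of its group. The log2 fold change was -0.28 (SE 0.0821, limma adjusted p = 0.0290). This call held in the fit without siI1 replicate 1 (adjusted p = 0.00138) and was lost when any other library was left out, with an adjusted p between 0.0735 and 0.0932. Median centring and a fit without the mean-variance trend ended it too, and equal sums of FPKM gave a log2 fold change of -0.45. NRP2 was measured at 4.72, 4.26 and 4.90 FPKM with siC and 6.42, 5.31 and 5.22 FPKM with siI1. All siI1 libraries were above all siC libraries, but the log2 fold change of 0.28 (SE 0.106, limma adjusted p = 0.0710) did not pass. It passed with median centring and with limma-voom. With equal sums of FPKM it was 0.11 (adjusted p = 0.531), and without siI1 replicate 1 it was 0.18 (adjusted p = 0.117), and over all alternatives the adjusted p ran from 0.0263 to 0.531. The NRP2 to NRP1 ratio came to 0.409, 0.378 and 0.440 in control libraries, against 0.614, 0.614 and 0.588 after the knockdown, so that it was higher in each siI1 library here and lower in each in BE(2)-C.

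**Figure D1:**
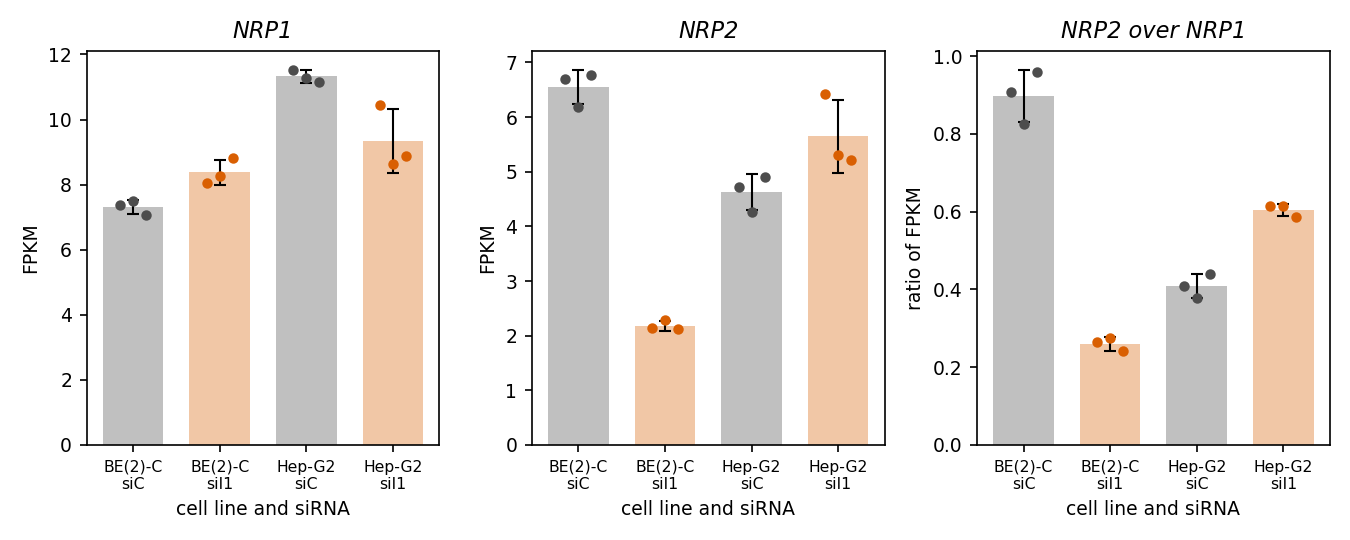
FPKM of NRP1 and NRP2 and the ratio of NRP2 to NRP1 FPKM, with 1 point per library, bars at the mean and error bars of 1 SD (n = 3), for siC and siI1 in BE(2)-C and Hep-G2. In BE(2)-C, NRP2 lies at 6.19 to 6.78 FPKM with siC and at 2.12 to 2.28 FPKM with siI1, and in Hep-G2 the ratio is higher in each siI1 library than in each siC library.

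Plexins are the receptors that carry semaphorin signals across the membrane. PLXNA2, a partner of neuropilins that also binds class 6 semaphorins directly, was measured at 7.90, 7.05 and 8.12 FPKM with siC and 3.94, 3.78 and 3.66 FPKM with siI1 in BE(2)-C. The siI1 values lay close together and below all siC values. The log2 fold change was -1.0 (SE 0.0762, limma adjusted p = 0.000318). PLXNA2 was the 1 member that was lower in both lines. In Hep-G2 it was measured at 2.88, 2.93 and 2.93 FPKM with siC and 1.44, 1.1 and 1.28 FPKM with siI1, again without overlap, and its log2 fold change was -1.13 (SE 0.122, limma adjusted p = 0.000428). Subtracting this change from that in BE(2)-C gave a difference of 0.13 (limma adjusted p = 0.463), which did not pass.

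PLXNA4, the plexin that works with NRP1 in sensory and sympathetic neurons, was measured at 6.55, 6.69 and 7.27 FPKM with siC and 4.05, 4.03 and 4.35 FPKM with siI1 in BE(2)-C. Again no siI1 library reached a siC library, and the log2 fold change was -0.71 (SE 0.0708, limma adjusted p = 0.000760). In Hep-G2 it was below the filter, with at most 3 reads in a library. PLXND1, the receptor of SEMA3E known for the patterning of vessels, was measured at 16.2, 13.4 and 15.6 FPKM with siC and 9.55, 9.60 and 8.83 FPKM with siI1 in BE(2)-C. All siI1 libraries were below the lowest siC library, replicate 2. Its log2 fold change was -0.68 (SE 0.0813, limma adjusted p = 0.00146). In Hep-G2 PLXND1 was measured at 12.4, 13.4 and 13.7 FPKM with siC and 13.8, 13.6 and 13.6 FPKM with siI1. There the groups overlapped and no change was called (log2 fold change 0.06, limma adjusted p = 0.474), and with equal sums of FPKM the value was -0.11.

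The sequences upstream of the genes are shown for PLXNA2 and PLXND1, since both receptors fell together in BE(2)-C. RefSeq promoter windows (GRCh38.p14) matched 58 of the 68 members. The 250 bases before the start are printed 5′ to 3′ on the strand of the gene, at chr1:208244385-208244634 and chr3:129606677-129606926, both on the minus strand. These bases overlap no annotated exon. The windows of NRP2 and PLXNA4 are not printed. Capitals mark matches on either strand to 4 motifs. The E-box was searched as CACGTG and the AP-1 site as TGACTCA. The GC box was searched as GGGCGG and the CCAAT box by the letters of its name, and no match overlaps one of another motif.
PLXNA2: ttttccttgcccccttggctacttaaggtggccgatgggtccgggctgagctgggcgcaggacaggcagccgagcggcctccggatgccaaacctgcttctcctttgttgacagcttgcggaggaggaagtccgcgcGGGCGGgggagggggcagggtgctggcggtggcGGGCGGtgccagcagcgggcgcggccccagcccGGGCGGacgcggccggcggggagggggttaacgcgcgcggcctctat
PLXND1: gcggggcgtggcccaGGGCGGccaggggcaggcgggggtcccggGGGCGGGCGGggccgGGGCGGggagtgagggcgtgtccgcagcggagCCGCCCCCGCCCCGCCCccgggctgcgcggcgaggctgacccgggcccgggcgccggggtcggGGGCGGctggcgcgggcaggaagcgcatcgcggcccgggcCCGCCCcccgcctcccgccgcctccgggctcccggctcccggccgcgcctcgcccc
PLXNA2 held 3 and PLXND1 9 GC boxes, and neither window held the letters of the other motifs. Of all 35116 promoter windows of this length, 42.6% held a GC box, 32.0% a CCAAT box, 6.34% an E-box and 4.20% an AP-1 site. The matches describe letters and were not tested as binding sites.

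PLXNB1, the receptor of SEMA4D, was higher in both lines. In BE(2)-C it was measured at 1.02, 0.906 and 1.23 FPKM with siC and 1.85, 1.72 and 1.72 FPKM with siI1, without overlap, and its log2 fold change was 0.70 (SE 0.144, limma adjusted p = 0.0118), or 0.43 with a pseudocount of 1. In Hep-G2 the values were 14.1, 14.3 and 14.3 FPKM with siC and 21.7, 21.3 and 22.0 FPKM with siI1. Replicates there differed by less than 1 FPKM, and the log2 fold change was 0.60 (SE 0.0453, limma adjusted p = 8.87e-05). PLXNB2, which binds several class 4 semaphorins, was the most abundant plexin in both lines. It rose in Hep-G2 from 30.5, 30.9 and 30.7 FPKM with siC to 45.3, 47.4 and 50.1 FPKM with siI1 (log2 fold change 0.63, SE 0.0524, limma adjusted p = 0.000135). Its BE(2)-C values were 38.8, 32.6 and 36.6 FPKM with siC and 34.4, 33.0 and 34.1 FPKM with siI1, the groups overlapped, and no change was called (log2 fold change -0.09, limma adjusted p = 0.394). PLXNC1, the receptor of SEMA7A, was measured at 4.64, 4.01 and 4.19 FPKM with siC and 10.9, 8.65 and 9.28 FPKM with siI1 in Hep-G2, with siI1 replicate 1 the highest. All siI1 libraries exceeded all siC libraries (log2 fold change 1.15, SE 0.106, limma adjusted p = 0.000213). It was below the filter in BE(2)-C, with 6 to 18 reads per library. The other plexins, PLXNA1, PLXNA3 and PLXNB3, were tested in both lines and called in neither, with log2 fold changes between -0.25 and 0.15.

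**Figure D2:**
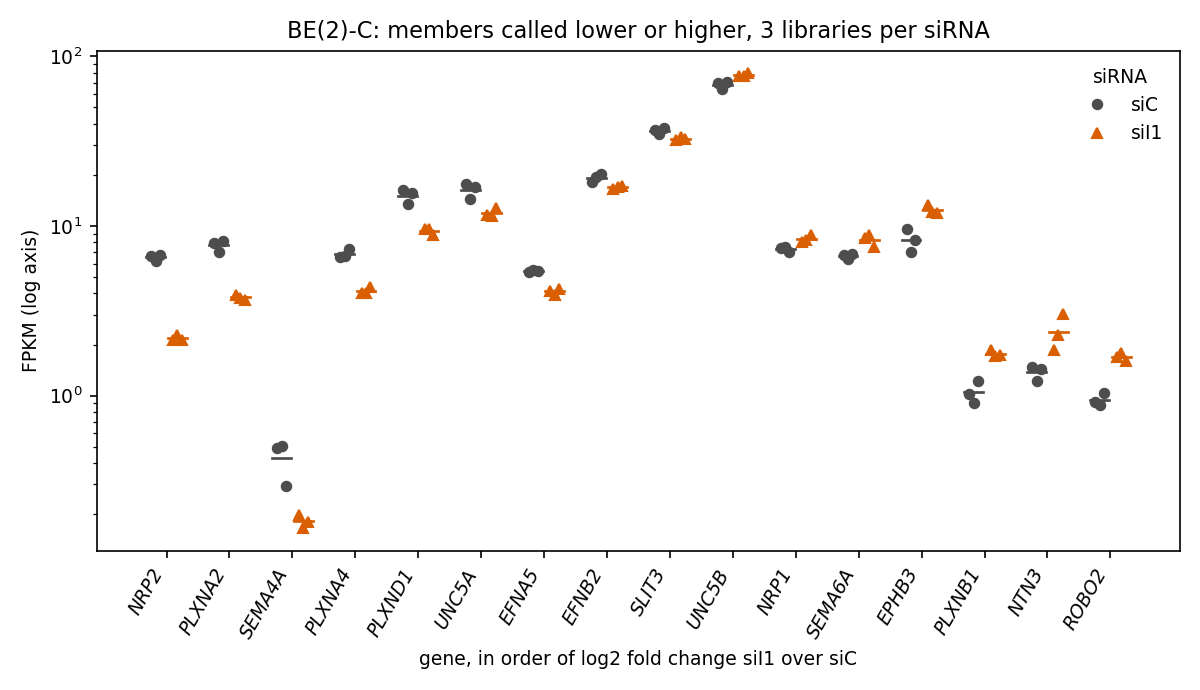
FPKM on a log axis of the 16 members called lower or higher in BE(2)-C, with 1 point per library (3 siC, 3 siI1) and a line at each group's mean, in order of log2 fold change. The siI1 libraries of the genes on the left, from NRP2 to SLIT3, lie below the siC libraries, and those from UNC5B to ROBO2 above them.

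Semaphorins are the ligands of these receptors. Of 20 semaphorins 16 were tested in BE(2)-C, where 1 was lower and 1 higher, or 6.25% each, beside the 19.9% and 15.5% of all tested protein-coding genes. SEMA4A, a membrane-bound semaphorin known from immune cells, was measured at 0.490, 0.503 and 0.294 FPKM with siC and 0.199, 0.166 and 0.179 FPKM with siI1. They rest on 16 to 48 reads per library, and siC replicate 3 lay closest to the siI1 libraries. The log2 fold change was -0.89 (SE 0.270, limma adjusted p = 0.0486), a call that held only when siC replicate 3 was left out and was otherwise lost with an adjusted p between 0.0916 and 0.135. It was also lost with a pseudocount of 0.01, without a filter, with median centring and with equal sums of FPKM, and the log2 fold change was -0.27 with a pseudocount of 1. SEMA6A, a membrane-bound ligand of PLXNA2 and PLXNA4, was higher (log2 fold change 0.30), a call that held only when siI1 replicate 3 was left out and was otherwise lost with an adjusted p between 0.0525 and 0.0880, as it was without the trend. SEMA3F, the NRP2 ligand, was the most abundant class 3 semaphorin of BE(2)-C. It was measured at 5.17, 4.32 and 4.43 FPKM with siC and 3.61, 4.03 and 3.75 FPKM with siI1, without overlap, but did not pass (log2 fold change -0.28, limma adjusted p = 0.0645), and was lower with limma-voom and with a filter of 1 FPKM. It is named after its values were seen, as the main ligand of NRP2. SEMA3B, SEMA3G, SEMA5A and SEMA6B were below the filter in BE(2)-C.

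In Hep-G2, 13 semaphorins were tested, of which 3 were lower and 5 higher. These are 23.1% and 38.5%, beside 30.5% and 25.3% of all tested protein-coding genes. Of the higher semaphorins, SEMA4G, SEMA6C and SEMA7A lost their calls with equal sums of FPKM. SEMA6B, a membrane-bound ligand of A-type plexins and after SEMA3B the most abundant member in control cells, was measured at 52.6, 56.0 and 53.2 FPKM with siC and 107, 123 and 126 FPKM with siI1. Each siI1 library lay more than 50 FPKM above each siC library. Its log2 fold change was 1.13 (SE 0.0728, limma adjusted p = 4.77e-05). SEMA4B, a class 4 semaphorin of epithelia and neurons, was measured at 4.26, 4.24 and 4.67 FPKM with siC and 6.50, 6.53 and 6.67 FPKM with siI1. The siI1 values were almost equal and all above the siC values (log2 fold change 0.57, SE 0.0712, limma adjusted p = 0.000789). SEMA3G, a secreted ligand of NRP2, went down from 4.85, 4.86 and 4.65 FPKM with siC to 2.52, 2.56 and 2.76 FPKM with siI1. Its groups were far apart (log2 fold change -0.85, SE 0.0817, limma adjusted p = 0.000250).

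Further semaphorins called in Hep-G2 were SEMA3C (log2 fold change -1.39, at most 41 reads in a library) and SEMA4C (-0.46), which were lower, and SEMA6C (0.63), SEMA7A (0.36) and SEMA4G (0.31), which were higher. SEMA3C is a secreted class 3 semaphorin, SEMA4C and SEMA4G are membrane-bound ligands of PLXNB2, and SEMA7A is held by a lipid anchor and binds PLXNC1. The call of SEMA6C was lost without siI1 replicate 3, with a limma adjusted p of 0.0659, and held without any other library, the lowest being 0.0239. Scaling to equal sums of FPKM ended the calls of SEMA6C, SEMA7A and SEMA4G. With a filter of 1 FPKM, SEMA3C was not tested. Of the exonic length of SEMA4G, 22.9% overlaps MRPL43 on the opposite strand, which was itself measured at 18.5 FPKM with siC and 26.3 FPKM with siI1 on average. The strand setting of the read counting is not given in the sources used here, so the value of SEMA4G is uncertain. All opposite-strand overlaps together covered 28.0% of SEMA4G, 7.89% of PLXNC1 and at most 4.87% of any other called member. Of EPHA1, 1.75% overlaps ZYX, which was far more abundant. ZYX averaged 37.2 FPKM with siC and 26.5 FPKM with siI1 in BE(2)-C, and 46.5 and 65.6 FPKM in Hep-G2. The values of EPHA1 are therefore uncertain in the same way. SEMA3D, SEMA3E, SEMA4A, SEMA4D, SEMA5A, SEMA5B and SEMA6D were below the filter in Hep-G2.

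EFNA1 and the Eph receptors EPHA1, EPHA10 and EPHB4 were higher in Hep-G2. Most Eph receptors were below the filter there. Of 4 tested, 3 were higher and none lower, and of 6 ephrins tested 1 was higher and none lower, where 25.3% of all tested protein-coding genes were higher and 30.5% lower. As EPHA10 and EPHB1 met the filter through 1 group alone, the count of Eph receptors is no measure of the family. EFNA1, a lipid-anchored ligand of EphA receptors, was the most abundant ephrin of Hep-G2, at chr1:155127876-155134899 on the plus strand of hg38. It was measured at 17.6, 19.9 and 18.8 FPKM with siC and 49.4, 63.0 and 58.4 FPKM with siI1. The lowest siI1 library, replicate 1, was well above the highest siC library. The log2 fold change was 1.59 (SE 0.0978, limma adjusted p = 3.98e-05), a 3.01-fold increase. EPHA1, a receptor of A-type ephrins found in epithelia, was measured at 1.77, 1.60 and 1.66 FPKM with siC and 4.61, 6.15 and 5.41 FPKM with siI1. Again siI1 replicate 1 was the lowest of its group and still far above the siC libraries, and the log2 fold change was 1.62 (SE 0.125, limma adjusted p = 9.93e-05).

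EPHB4, the receptor of EFNB2 that marks veins, had the smallest p of all members in Hep-G2. It was measured at 18.4, 18.3 and 18.8 FPKM with siC and 35.2, 36.6 and 37.2 FPKM with siI1. Both groups were tight and did not approach each other (log2 fold change 0.97, SE 0.0467, limma adjusted p = 1.70e-05). EPHA10, an Eph receptor without kinase activity, was measured at 0.0869, 0.0810 and 0.0915 FPKM with siC and 0.444, 0.430 and 0.404 FPKM with siI1. It rested on 9 to 11 reads per siC library and 44 to 51 reads per siI1 library (log2 fold change 1.5, SE 0.248, limma adjusted p = 0.00288). No siC library reached the filter of 0.1 FPKM, and the log2 fold change was 0.39 with a pseudocount of 1 and 2.25 with limma-voom. EPHB1, the remaining Eph receptor tested, had at most 18 reads in a library and was not called (log2 fold change -0.75, limma adjusted p = 0.0858), but was lower with limma-voom and without the trend. EFNB2, the ligand of EPHB4, was measured at 0.274, 0.345 and 0.274 FPKM with siC and 0.166, 0.169 and 0.168 FPKM with siI1. The groups did not overlap, but it passed only without the trend (log2 fold change -0.57, limma adjusted p = 0.110).

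The upstream sequences of EFNA1, EPHA1 and EPHB4 are shown for the ligand and the receptors that rose together in Hep-G2, from the same table and with the same motifs in capitals. They lie at chr1:155127626-155127875 on the plus strand and at chr7:143408857-143409106 and chr7:100827524-100827773 on the minus strand of GRCh38.p14, and overlap no annotated exon.
EFNA1: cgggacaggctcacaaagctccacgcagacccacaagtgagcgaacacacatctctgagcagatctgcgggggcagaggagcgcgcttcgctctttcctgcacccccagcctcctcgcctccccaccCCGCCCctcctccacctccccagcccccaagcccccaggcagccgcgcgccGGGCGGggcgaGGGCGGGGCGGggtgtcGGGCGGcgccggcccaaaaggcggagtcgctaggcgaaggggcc
EPHA1: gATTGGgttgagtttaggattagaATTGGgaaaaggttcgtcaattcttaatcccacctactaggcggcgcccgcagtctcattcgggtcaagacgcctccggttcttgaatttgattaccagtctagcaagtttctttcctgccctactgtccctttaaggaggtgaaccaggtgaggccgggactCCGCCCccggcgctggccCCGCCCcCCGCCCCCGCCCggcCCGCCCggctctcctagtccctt
EPHB4: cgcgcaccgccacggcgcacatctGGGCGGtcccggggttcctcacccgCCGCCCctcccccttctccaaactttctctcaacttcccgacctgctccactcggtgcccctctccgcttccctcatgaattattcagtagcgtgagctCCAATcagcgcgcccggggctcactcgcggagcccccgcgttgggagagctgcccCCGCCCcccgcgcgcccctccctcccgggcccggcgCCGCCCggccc
EFNA1 held 5 GC boxes, EPHA1 5 GC boxes and 2 CCAAT boxes, and EPHB4 4 GC boxes and 1 CCAAT box. The letters of the E-box and the AP-1 site were in none of these windows.

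The same 3 genes were not called in BE(2)-C. EFNA1 was measured at 1.78, 1.1 and 1.86 FPKM with siC and 2.06, 2.28 and 2.67 FPKM with siI1, without overlap, and did not pass (log2 fold change 0.55, limma adjusted p = 0.0861), but passed with limma-voom. Without siC replicate 2, its lowest library, the value was 0.34. EPHB4 was measured at 1.67, 1.44 and 1.38 FPKM with siC and at lower values, 1.09, 1.15 and 1.12 FPKM, with siI1. Its log2 fold change of -0.38 did not pass (limma adjusted p = 0.0667), and passed without the mean-variance trend and with limma-voom, while a pseudocount of 1 gave -0.23. EPHA1 overlapped between the groups, at 1.43, 0.626 and 1.07 FPKM with siC and 0.752, 0.912 and 0.563 FPKM with siI1.

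The Eph receptor that rose in BE(2)-C was EPHB3, a receptor of B-type ephrins that takes part in forming the corpus callosum. It was measured at 9.64, 7.01 and 8.30 FPKM with siC and 13.2, 12.1 and 11.9 FPKM with siI1. The lowest siI1 library exceeded the highest siC library, and the log2 fold change was 0.58 (SE 0.114, limma adjusted p = 0.00996). EPHB3 had at most 2 reads in a Hep-G2 library. All 8 ephrins were tested in BE(2)-C. EFNA5, a lipid-anchored ephrin with a repellent role in retinal axons, was lower (log2 fold change -0.39), as was EFNB2 (-0.19), whose call held only when siC replicate 1 was left out and was otherwise lost with an adjusted p between 0.0764 and 0.0998. EFNB1 was the most abundant ephrin of BE(2)-C, with 20.3 to 24.4 FPKM, and was not called.

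Of the Eph receptors, EPHA3, EPHA4, EPHA7, EPHA10, EPHB1 and EPHB6 were below the filter in BE(2)-C, and EPHA3, EPHA4 and EPHB6 had no read there. In Hep-G2, EPHA3, EPHA4, EPHA5, EPHA6, EPHA7, EPHA8, EPHB2, EPHB3 and EPHB6 were below the filter, as were the ephrins EFNA5 and EFNB3. The 4 Eph receptors without a read in Hep-G2 were EPHA3, EPHA4, EPHA6 and EPHA8. The remaining Eph receptors tested in BE(2)-C, EPHA5, EPHA6, EPHA8 and EPHB2, had log2 fold changes between -0.35 and 0.23 and were not called.

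**Figure D3:**
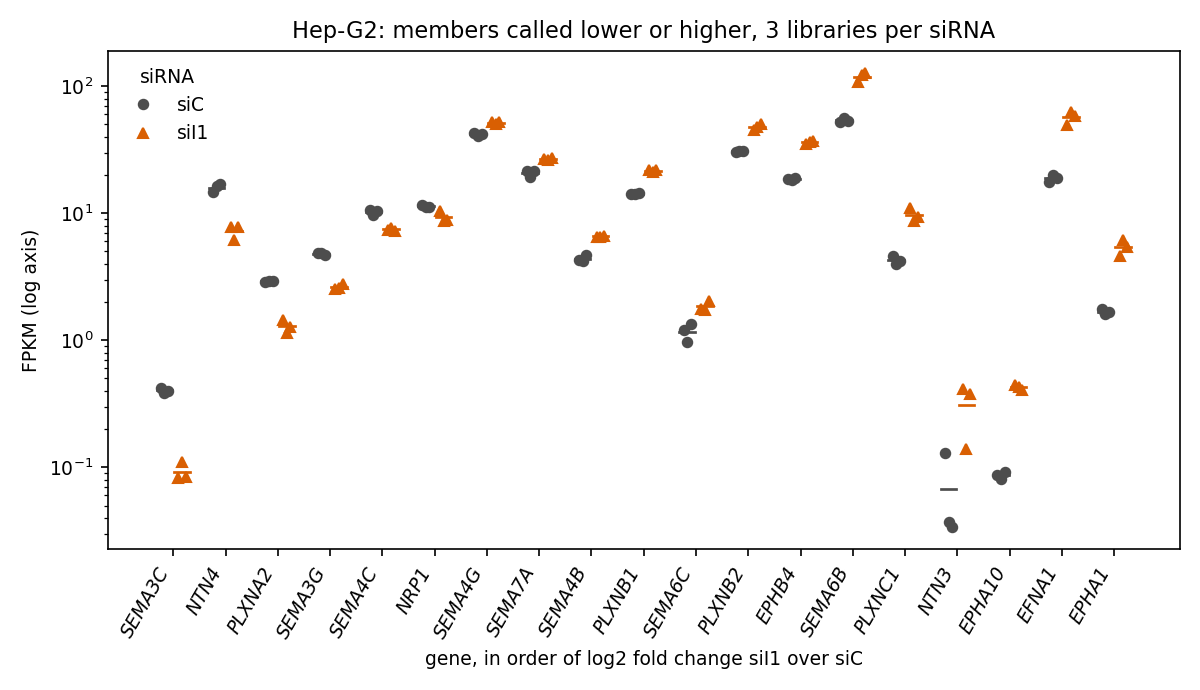
FPKM on a log axis of the 19 members called lower or higher in Hep-G2, with 1 point per library (3 siC, 3 siI1) and a line at each group's mean, in order of log2 fold change. SEMA3C and NTN4 are among the lower genes on the left and EPHA10, EFNA1 and EPHA1 lie on the right, where each siI1 library exceeds each siC library.

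Slits and ROBO2 passed the filter in BE(2)-C alone, whereas ROBO1 passed in both lines. ROBO2, a slit receptor of commissural and sensory axons, was measured in BE(2)-C at 0.911, 0.875 and 1.03 FPKM with siC and 1.69, 1.77 and 1.61 FPKM with siI1. The groups were well apart, with 187 to 435 reads per library, and the log2 fold change was 0.79 (SE 0.129, limma adjusted p = 0.00491), or 0.47 with a pseudocount of 1. ROBO1 was more abundant than ROBO2 and was not called in either, with log2 fold changes of 0.12 in BE(2)-C and -0.07 in Hep-G2. Without siI1 replicate 1 of Hep-G2, where ROBO1 was highest, it was called lower at -0.22 (limma adjusted p = 0.0460). SLIT3, the secreted ligand that made up most of the slit expression in BE(2)-C, was measured at 36.7, 34.8 and 37.6 FPKM with siC and 32.0, 33.3 and 32.6 FPKM with siI1. Its groups did not overlap and it was lower (log2 fold change -0.15), a call that held only when siC replicate 2 was left out and was otherwise lost with a limma adjusted p between 0.0792 and 0.123. Median centring, equal sums of FPKM, no trend and no filter also ended it. SLIT1 and SLIT2 were below 0.4 FPKM in every BE(2)-C library and were not called, though SLIT2 was higher without the trend and with limma-voom. ROBO3 was tested in BE(2)-C and not called, and ROBO4 had 1 read in all. In Hep-G2 no slit passed the filter, and neither did ROBO2, ROBO3 and ROBO4.

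Netrins differed in kind between the lines. NTN4, a secreted netrin of basement membranes that binds laminin, was almost the only netrin of Hep-G2. It was measured at 14.6, 16.3 and 17.0 FPKM with siC and 7.81, 6.18 and 7.77 FPKM with siI1. No siI1 library came near the siC libraries, and the log2 fold change was -1.13 (SE 0.109, limma adjusted p = 0.000254). It was below the filter in BE(2)-C, with no more than 7 reads in a library. NTN3, a secreted netrin of sensory ganglia, was measured in BE(2)-C at 1.47, 1.22 and 1.44 FPKM with siC and 1.86, 2.28 and 3.01 FPKM with siI1. The siI1 libraries lay above the siC libraries and were spread widely, and the 6 libraries held 31 to 83 reads each (log2 fold change 0.73, SE 0.186, limma adjusted p = 0.0265). The call held without siI1 replicate 1 and was lost when any other library was left out, with an adjusted p between 0.0523 and 0.0755. NTN3 was called higher in Hep-G2 as well (log2 fold change 1.26), on 1 to 11 reads per library, and this call was lost without siC replicate 2 or 3 or without siI1 replicate 1 or 3, with an adjusted p between 0.121 and 0.140. Other pseudocounts also ended it, at 2.13 with a pseudocount of 0.01 and 0.29 with 1. NTN1 and NTN5 were below the filter in both lines.

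Netrin receptors of the UNC5 type, which mediate repulsion, were prominent in BE(2)-C. UNC5B, which is also known from vessels, was the most abundant member there, with 69.7, 63.8 and 70.7 FPKM in the siC and 76.5, 76.4 and 79.2 FPKM in the siI1 libraries. It was higher by a small amount (log2 fold change 0.19), a call that held when siC replicate 1 or 3 was left out and was lost when any other library was, with a limma adjusted p between 0.0693 and 0.118. It was also lost without the trend and without a filter. UNC5A, which can induce apoptosis in neurons when no netrin is bound, was measured at 17.7, 14.4 and 16.9 FPKM with siC and 11.6, 11.4 and 12.8 FPKM with siI1. All siI1 libraries were below all siC libraries, and it was lower (log2 fold change -0.45). UNC5C was measured between 18.6 and 21.0 FPKM in the BE(2)-C libraries and was not called. DCC had at most 2 reads in a library of BE(2)-C, and UNC5D had no read in either line. None of these receptors passed the filter in Hep-G2.

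Summing FPKM within each group gives the amount of RNA of the members of each kind. It measures neither protein nor a whole family, since the symbol rule did not take every gene. In BE(2)-C the A-type plexins summed to 43.5, 41.3 and 46.2 FPKM with siC and 36.8, 36.8 and 36.0 FPKM with siI1. PLXNA1, which was not called, made up 61.2% of the control sum. The siI1 libraries were thus lower in sum through A-type plexins other than the most abundant. The neuropilins summed to 14.1, 13.7 and 13.8 and 10.2, 10.6 and 10.9 FPKM, and the EphB receptors to 13.2, 10.2 and 11.5 and 16, 15.3 and 14.8 FPKM, of which EPHB3 made up 71.6% in control cells. These groups did not overlap between siC and siI1, also with the other scalings of the libraries.

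In Hep-G2 the A-type ephrins summed to 37.8, 47.2 and 44 FPKM with siC and 73.8, 89.8 and 87.5 FPKM with siI1, and the EphB receptors, almost entirely EPHB4, to 18.6, 18.4 and 19.0 and 35.2, 36.7 and 37.3 FPKM. The semaphorins of classes 4 to 7 summed to 137, 135 and 137 FPKM with siC and 207, 219.9 and 227 FPKM with siI1. A-type ephrins, EphB receptors and these semaphorins were thus more abundant in each siI1 library than in each siC library. Of the A-type ephrins only EFNA1 was called, with a mean of 18.8 FPKM with siC and 56.9 FPKM with siI1. Among the semaphorins, SEMA6B went from 53.9 to 119 FPKM on average. SEMA4B, SEMA4G, SEMA6C and SEMA7A were also higher, whereas SEMA4C was lower. The netrins fell from 14.7, 16.3 and 17.1 to 8.25, 6.36 and 8.20 FPKM. The directions of these sums and the separation of the groups were the same with median centring and with equal sums of FPKM.

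**Figure D4:**
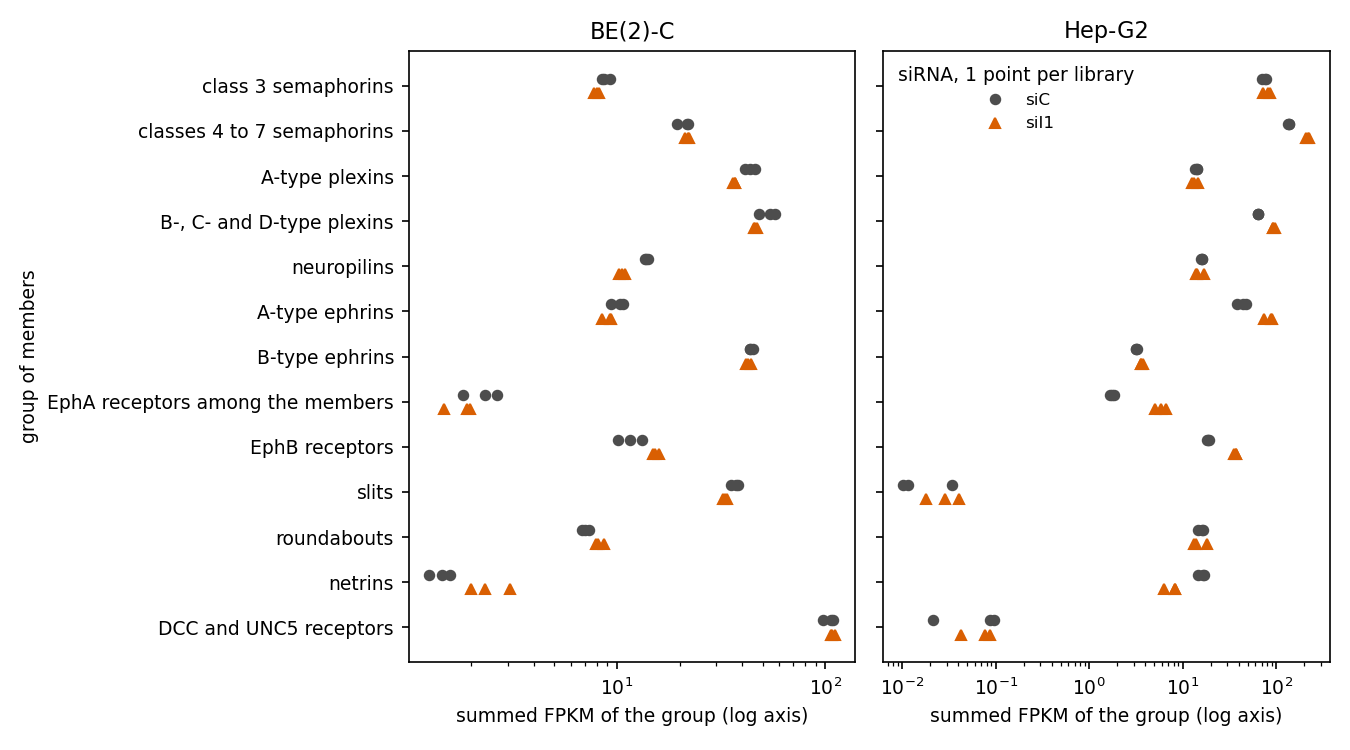
Summed FPKM of the members of each group on a log axis, with 1 point per library (3 siC, 3 siI1), in BE(2)-C on the left and Hep-G2 on the right. In BE(2)-C the neuropilins and A-type plexins are lower and the EphB receptors higher with siI1. In Hep-G2 the A-type ephrins, EphB receptors and classes 4 to 7 semaphorins are higher and the netrins lower. The EphA receptors among the members, which are not all EphA receptors, are also higher there, and EPHA1 makes up 94.8% of their siC sum.

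Whether a member responded differently in the 2 lines was tested directly, as the difference of its log2 fold changes. Of 29 members tested in both lines, 12 differed at an adjusted p below 0.05 in limma, which is 41.4% of them. Over all genes tested in both lines 40.2% differed, and over the protein-coding genes 49.9%, so that this share is near the background. In 10 of the 12 the change in BE(2)-C was below that in Hep-G2 and in 2 above it. Of all tested genes 18.5% differed with the change in BE(2)-C below and 21.7% with it above, and of the protein-coding genes 22.4% and 27.5%. These directions were not tested against each other. With equal sums of FPKM, SEMA4B and SEMA4F no longer differed and SEMA3A, SEMA3C and SEMA4C did. NRP2 had the smallest p, with a difference of -1.83 (SE 0.130, limma adjusted p = 1.84e-06). EPHB4 followed with -1.35 (SE 0.0998, limma adjusted p = 2.27e-06). NRP1, the 1 member called in opposite directions, differed by 0.48 (SE 0.101, limma adjusted p = 0.00318). PLXNA2, lower in both lines, and PLXNB1 and NTN3, higher in both, did not differ by this test, which does not show that their effects were equal. A further 22 members were tested in BE(2)-C alone and 7 in Hep-G2 alone, and 10 in neither, so that the difference was not tested for them with this filter. Without a filter, which admits genes with few or no reads, 20 members differed.

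**Figure D5:**
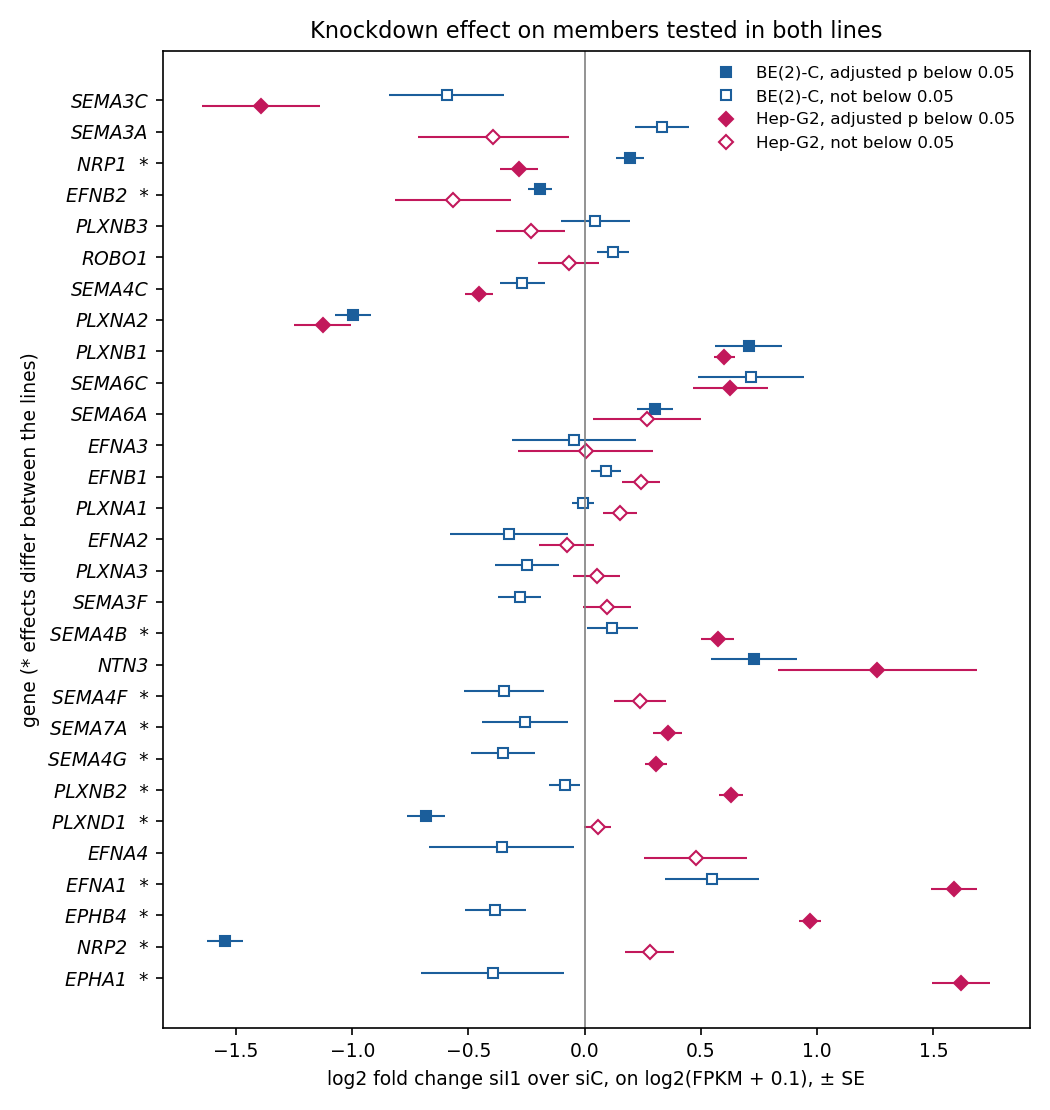
Log2 fold change of siI1 over siC, on log2(FPKM + 0.1) with bars of 1 SE (n = 3 libraries per siRNA and line), for the 29 members tested in both lines, filled where the adjusted p was below 0.05. Asterisks mark the 12 members whose effects differ between the lines, among them NRP2 at -1.55 in BE(2)-C and 0.28 in Hep-G2.

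Other genes of the pathway, 87 in all, covered, among others, co-receptors, adaptors, kinases and cytoskeletal effectors. Of these, 72 were tested in BE(2)-C, of which 15 were lower and 17 higher, with a median log2 fold change of 0.03. These are 20.8% and 23.6%, against 19.9% lower and 15.5% higher among all tested protein-coding genes, and the shares were not tested against each other. With median centring 10 were lower and 20 higher, and without the trend 8 were lower. Leaving out 1 library gave 9 lower without siI1 replicate 2 or 3, and 8 higher without siI1 replicate 2 and 11 without siI1 replicate 1 or 3. CRMP1, a cytoplasmic mediator of semaphorin signals, had the smallest p and was measured at 88.8, 78.2 and 78.9 FPKM with siC and 26.0, 25.3 and 24.8 FPKM with siI1. The groups were far apart (log2 fold change -1.68, SE 0.0584, limma adjusted p = 3.32e-05). Its relative DPYSL5 was also lower (33.3 ± 2.32 FPKM with siC and 24.8 ± 0.987 with siI1, mean ± SD, n = 3, log2 fold change -0.42), whereas DPYSL3 of the same family was higher (69.2 ± 0.688 and 85.1 ± 1.37 FPKM, log2 fold change 0.30). Lower were also LIMK1, the kinase that inactivates cofilin (8.30 ± 0.581 and 5.25 ± 0.0413 FPKM, log2 fold change -0.65), and MICALL1, a relative of the plexin-binding oxidases (log2 fold change -0.44). Higher were PTPRO, a phosphatase that acts on Eph receptors (log2 fold change 0.44), CHN1, a Rac regulator downstream of EphA receptors (0.34), and BOC, a co-receptor for Sonic hedgehog in commissural axons (1.09).

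In Hep-G2 70 genes of this list were tested, of which 25 were lower and 19 higher, with a median log2 fold change of -0.15. The shares, 35.7% and 27.1%, were near the 30.5% and 25.3% of all tested protein-coding genes. FLRT2, among the higher genes, met the filter in the siI1 libraries alone and thus had to differ in order to be tested. With equal sums of FPKM 32 were lower and 10 higher, and 12 were higher without siC replicate 1 or without siI1 replicate 2. Without siI1 replicate 1, 29 were lower and 18 higher. CFL2, an actin-severing cofilin, was higher (28.5 ± 0.254 FPKM with siC and 40.4 ± 1.54 with siI1, log2 fold change 0.50), and 1 higher gene with a smaller p is not reported. VASP, an actin elongation factor downstream of guidance receptors, was lower (54.4 ± 0.832 and 24.1 ± 0.870 FPKM, log2 fold change -1.17), as was SDCBP, an adaptor that binds B-type ephrins (34.5 ± 0.707 and 21.6 ± 0.641 FPKM, log2 fold change -0.67). Both directions occurred in this list in each line, as they did among the members.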

How the data were processed

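Poly-A RNA of BE(2)-C and Hep-G2 cells was sequenced as paired ends from strand-specific libraries. The authors clipped reads with Cutadapt 1.14, aligned them to hg38 with HISAT2 2.1.0, counted them per gene with featureCounts 1.5.3 and normalized with edgeR 3.30.3 (TMM). The deposited tables, normalized separately per cell line, give FPKM per library and gene length. No unit stands in the header. It was taken from the values, since each FPKM multiplied by gene length is a whole number of steps of 1 size per library (100% of nonzero values, tolerance 0.001), which gave the reads. The authors' own columns of log2 fold change, p-value and FDR were not used.

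Genes with at least 0.1 FPKM in at least 3 of 6 libraries of a line were tested on log2(FPKM + 0.1) with limma 3.58.1 (mean-variance trend) in R 4.3.3, two-sided, with Benjamini-Hochberg adjustment over all 18656 (BE(2)-C) or 19436 (Hep-G2) tested genes and a threshold of 0.05. The difference between the lines was the interaction in a fit of all 12 libraries over 15362 genes. Exact permutation of 3 against 3 libraries cannot give a p below 0.1. The fits were tested on simulated data with changes planted only in genes of at least 1 FPKM on average with siC. Recovery of changes in weaker genes was not tested. Members called with an absolute log2 fold change of at least 0.5 (up to 16 in BE(2)-C and 12 in Hep-G2 by smallest p), or in opposite directions, are described in full, other called members by fold change, and pathway genes are named from the 4 (BE(2)-C) or 2 (Hep-G2) smallest p per direction, of which 1 higher gene in Hep-G2 is not reported. The members and lists were chosen with earlier results of these data known. Alternatives varied the pseudocount, filter, scaling, trend, test, replicate block and threshold and left out each library. Coordinates are from GENCODE 44, and tables and plots were made with Python 3.11.15, pandas 2.3.3 and Matplotlib 3.10.9.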

Additional observations from a re-analysis of the deposited data

Results flagged for a closer look

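The effect of the knockdown differed between the cell lines for 12 members by the limma test of the difference, given as the log2 fold change in BE(2)-C minus that in Hep-G2. It was -1.83 for NRP2 (adjusted p = 1.84e-06), -1.35 for EPHB4 (2.27e-06), -2.02 for EPHA1 (0.000835) and -1.04 for EFNA1 (0.00405), the largest differences below 0. The plexins PLXND1 and PLXNB2 differed by -0.74 and -0.72, and the semaphorins SEMA4G, SEMA7A, SEMA4F and SEMA4B by -0.66, -0.62, -0.59 and -0.45. MRPL43, which overlaps SEMA4G on the opposite strand, averaged 21.0 FPKM with siC and 18.1 FPKM with siI1 in BE(2)-C. In Hep-G2 it averaged 18.5 and 26.3 FPKM. Its part in the difference of SEMA4G, and that of the overlapping gene ZYX in the difference of EPHA1, was not tested. Differences above 0 were seen for NRP1 (0.48) and EFNB2 (0.38). SEMA4F was called in neither line on its own and lost its difference without Hep-G2 siI1 replicate 3, and EFNB2, which had no more than 21 reads in a Hep-G2 library, lost its difference in 9 of the 12 fits that left out 1 library.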

How the results depend on the processing

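Of the fold changes of IGF2BP1 and the named members under the alternatives, 444 kept their direction and side of the threshold, 41 no longer passed, 5 newly passed and 1 changed sign: PLXND1 in Hep-G2, not called, was -0.11 with equal sums of FPKM. With limma-voom 15 members were lower and 11 higher in BE(2)-C, and at an adjusted p below 0.01, 5 and 2. Leaving out 1 library gave 3 to 5 higher members in BE(2)-C. Without a filter, 20 members differed between the lines. Of the pathway genes in BE(2)-C, 8 were lower without the trend, 8 lower and 7 higher at 0.01, and 9 to 11 lower and 8 to 16 higher with 1 library left out. In Hep-G2, 16 were lower and 11 higher at 0.01, 10 higher with equal sums of FPKM, and 12 to 18 higher with 1 library left out. Apart from the stricter threshold and the smaller number of libraries, the cause was not tested. All other counts stayed within 1.5 times. The replicate numbers did not pair the libraries: deviations of same-numbered libraries correlated at -0.010 to 0.023 (BE(2)-C) and -0.006 to 0.063 (Hep-G2), and not every library correlated best with its own number. With the replicate block, 7 members were lower and 5 higher in BE(2)-C and 6 lower and 15 higher in Hep-G2. Calls on few reads, as for SEMA4A, NTN3, SEMA3C and EPHA10, are limited by depth.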
